A study of Mus musculus with 6 samples.

Results

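The genes described are 10 that make and use small silencing RNAs: Drosha, Dgcr8, Xpo5, Dicer1, Tarbp2, Prkra and the Argonaute genes Ago1, Ago2, Ago3 and Ago4. They were chosen by symbol, and 10 of 10 had a row among the 23197 genes listed. The libraries came from mouse primary vascular smooth muscle cells, the muscle cells of the artery wall, grown in culture. RNA interference was used against Arid3a, the gene of a transcription factor that contacts AT-rich DNA, with the aim of following the transcriptome after its reduction. There were 3 libraries of cells given a negative control siRNA and 3 labelled si-Arid3a#1, si-Arid3a#2 and si-Arid3a#3, here called control and siArid3a libraries 1, 2 and 3, with 24 h of incubation after transfection. Values of a group are given in the order of libraries 1, 2 and 3. Cells of both groups were therefore transfected under 1 protocol. The cells were bought as primary cells; the labels do not give an animal's strain, sex or age, and no separate cultures are named, so p-values measure the spread between libraries, which may be technical. They also do not say whether the numbered siRNAs are different sequences, or whether these cells received the angiotensin II that the growth protocol describes.

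MicroRNAs begin as hairpins within long transcripts. The Microprocessor, made of the nuclease DROSHA and its RNA-binding partner DGCR8, cuts the hairpin out in the nucleus, exportin-5 carries it to the cytoplasm, and DICER1 with TARBP2 or PRKRA trims it to a short duplex. One strand is then held by an Argonaute protein, which finds target mRNAs by base pairing. A transfected siRNA duplex enters at the last of these steps, so the Argonautes are shared by the cell's own microRNAs and by the reagent used here.

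Total counts ranged from 17029735 to 22799935 per library. No reduction of the targeted transcript was seen. Arid3a had 375, 370 and 391 reads across the controls, against 380, 367 and 376 reads across the siArid3a set, so that its fitted log2 fold change, the base 2 logarithm of the ratio of siArid3a to control, was -0.03 (SE 0.13; edgeR adjusted p = 0.943). That sign turned in some alternatives. Directions below therefore describe libraries by their label, with no measured loss of the Arid3a transcript. The 8 smooth muscle markers summed to 594.0 to 699.4 CPM (the read count scaled to library size) in the controls. In the siArid3a libraries they summed to 600.7 to 762.7 CPM. Most of this sum was Acta2, at 485.1 to 647.9 CPM over the 6 libraries, and most of the rest was Smtn and Cnn1. Tagln stood at only 0.936 to 1.77 CPM, and Lmod1 and Synpo2 at 2.94 to 6.67 CPM. Myh11 and Des were under 1 CPM in all 6 libraries. The sum therefore describes mainly 1 gene of this list. Fibroblast markers summed to 2482 to 2952 CPM in the controls and 2233 to 2816 CPM in the siArid3a libraries. Among them Dcn was lower without overlap, at 448.0 to 596.9 CPM against 312.5 to 422.1 CPM. The other markers of this list overlapped, with Col1a1 at 855.0 to 1104 CPM against 896.5 to 1165 CPM. Endothelial markers summed to 20.6 to 30.2 CPM in the controls and 16.6 to 25.04 CPM in the siArid3a libraries, mostly Vwf, while Pecam1, Cdh5 and Emcn were under 1 CPM throughout. Vwf overlapped between the groups, and 2 scarce markers were apart in opposite directions. Kdr was higher, at 0.0579 to 0.544 CPM in the controls against 0.585 to 1.37 CPM. Tek was lower, at 1.33 to 1.56 CPM in the controls against 0.761 to 1.10 CPM. Macrophage markers summed to 11.1 to 14.8 CPM and 9.14 to 12.9 CPM, mostly Cd68 and Lyz2, while Ptprc and Adgre1 were under 1 CPM throughout. Cd68 and Lyz2 overlapped between the groups. Csf1r was lower without overlap, at 1.86 to 3.18 CPM in the controls against 1.58 to 1.83 CPM. The mesothelial and epithelial list, mainly Msln and Krt19, summed to 152.4 to 173.5 CPM in the controls. In the siArid3a libraries it summed to 127.4 to 144.9 CPM, with no overlap. No marker of any list was called by edgeR, and the groups did not overlap for 20.0% of all genes tested. The part of these cells in the differences below was not tested, and in bulk RNA fewer cells of a type and less RNA per cell cannot be told apart.

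The comparison of siArid3a with control libraries asked whether transcripts of the small RNA pathway differ after this transfection. None of the 10 genes passed the test, which does not show that they were equal. Their fitted fold changes ran from 0.797 for Ago4 to 1.15 for Ago2, and edgeR called 0 of 10 at an adjusted p (corrected for the number of genes tested) under 0.05, as it called 0 of 13234 genes tested (0.0%). DESeq2 called 0 of the 10 against 223 of all genes (1.69%), and limma-voom called 0 of either. edgeR without a filter on low counts called 1.89% of all genes, and with GC and length trends taken out 2.76%, and in both 0 of the 10. At an unadjusted p under 0.05 there was 1 of 10, Ago2, against 14.9% of all genes, or 7.36% counting those higher in siArid3a. That count was 0 of 10 without control library 1, control library 2 or siArid3a library 2 and with a replicate block, and 3 of 10 after GC and length correction. The groups did not overlap in 3 of 10, Dicer1, Drosha and Ago4, against 20.0% of all genes; the higher ones were 2, Dicer1 and Drosha, against 9.66%. The log2 fold change was above 0 in 7 of 10, against 48.9% of all genes, and its median was 0.09 over the 10 and -0.01 over all genes tested.

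**Figure D1:**
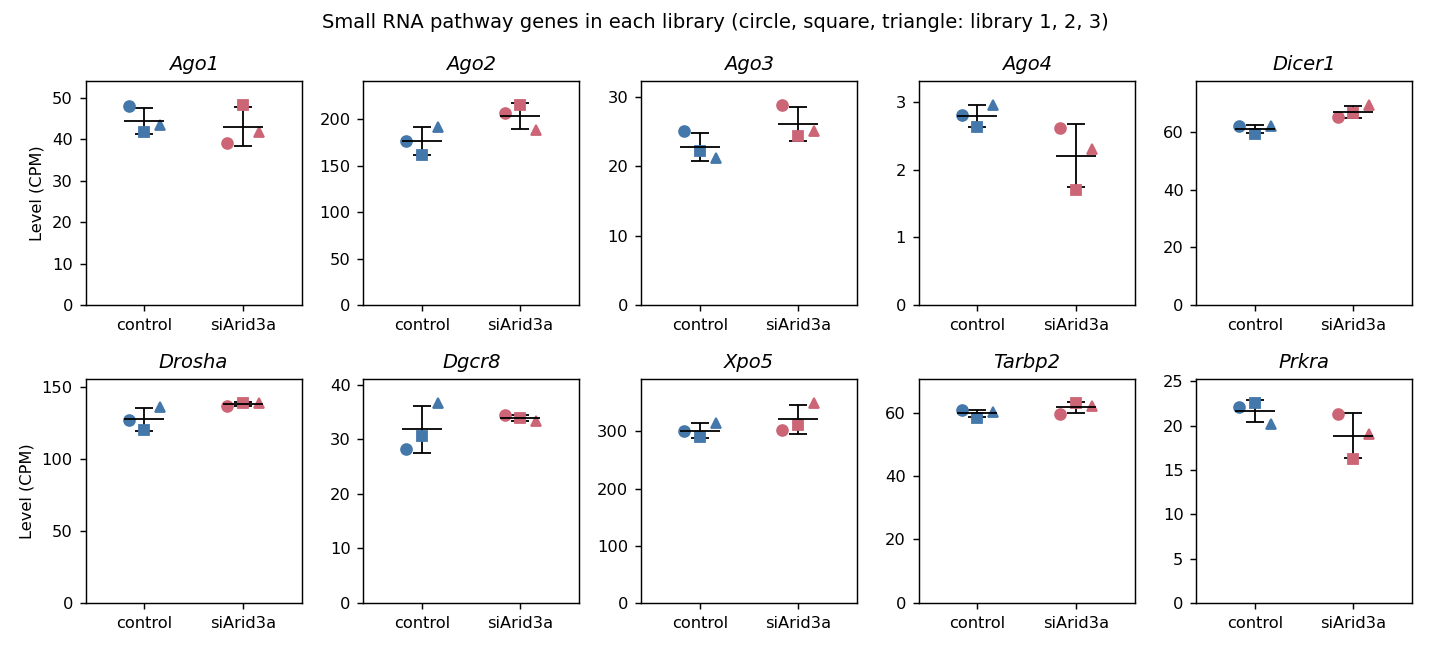
Level in CPM (vertical axis, from 0) of each of the 10 genes in 3 control libraries (blue) and 3 libraries labelled siArid3a (red); the black bar is the mean and the whiskers are the SD. Ago2 ranged from 161.3 to 192.0 CPM in the controls and from 188.4 to 215.1 CPM in the siArid3a libraries and the groups overlap; they are apart for Dicer1, Drosha and Ago4.

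Drosha, the nuclease gene of the Microprocessor (ENSMUSG00000022191, mm10 chromosome 15, 12824815 to 12935291, plus strand), had 126.8, 120.3 and 135.8 CPM across the controls, against 137.0, 138.7 and 139.1 CPM across the siArid3a set. Every siArid3a library lay above every control library, by a margin that was small against the distance between the controls. The means were 127.6 ± 7.80 and 138.3 ± 1.13 CPM (SD, n = 3 each). On the log2 scale the difference was 0.12 (SE 0.08) and its edgeR adjusted p was 0.485; the 95% interval spans 0.970 to 1.21 times the control level. Since the siRNA was aimed at a factor that binds AT-rich DNA, the promoters of the set were searched for ATTAAA and ATCAAA on both strands, letters of the kind ARID3A is known to bind. RefSeq windows (GRCm38.p6) of 250 bases before to 50 bases after the start matched 9 of the 10 genes, and 1 of the 9 held such a match, against 22.9% of 32851 windows. It was Drosha, whose window at chr15:12824565-12824864 (plus strand) is shown for that reason, with the match in capitals.
Drosha promoter: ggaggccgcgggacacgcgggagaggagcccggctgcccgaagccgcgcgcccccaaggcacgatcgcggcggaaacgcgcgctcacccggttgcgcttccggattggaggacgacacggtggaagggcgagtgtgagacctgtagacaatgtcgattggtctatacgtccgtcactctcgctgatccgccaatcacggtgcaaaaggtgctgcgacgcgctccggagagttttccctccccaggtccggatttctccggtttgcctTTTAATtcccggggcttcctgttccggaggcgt
The match is read on the opposite strand. It is a description of letters, not a binding site.

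The promoter windows of the set were rich in G and C. Their GC content ran from 59.0% for Tarbp2 to 83.3% for Ago4, against a median of 52.7% over all windows, and the observed over expected number of CG pairs ran from 0.51 for Prkra to 1.19 for Drosha, against a median of 0.38. The box GGGCGG, read on both strands, was in 8 of 9 against 35.7% of all windows, CCAAT in 5 of 9 against 37.4%, and TATAAA in 0 of 9 against 13.6%. No motif of these is contained in another.

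Dgcr8, the RNA-binding partner of DROSHA (ENSMUSG00000022718, chromosome 16, 18253948 to 18289246, minus strand), had 28.3, 30.6 and 36.7 CPM across the controls, against 34.4, 33.9 and 33.4 CPM across the siArid3a set. The 3 siArid3a libraries lay close together and inside the range of the controls, whose coefficient of variation, 13.6%, was the largest of the 10 genes in that group. Its log2 difference was 0.09 (SE 0.11) at an edgeR adjusted p of 0.730. It was 0.016 without control library 1 and 0.20 without control library 3. The Dgcr8 transcript itself carries hairpins that the Microprocessor can cut, a known feedback by which the complex limits its own partner. RefSeq places 2 hairpins on the gene's own strand, shown with their mature arms in capitals: Mir1306 at chr16:18284239-18284317 and the hairpin of mmu-miR-3618, named Gm24572, at chr16:18284550-18284637 (GRCm38.p6, minus strand).
Mir1306: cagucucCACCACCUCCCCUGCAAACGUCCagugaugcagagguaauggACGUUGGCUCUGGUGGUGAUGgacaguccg
Gm24572: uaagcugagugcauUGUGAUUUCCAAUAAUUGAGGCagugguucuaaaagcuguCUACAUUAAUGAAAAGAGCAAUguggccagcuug
The deposited counts are per gene, so cut and uncut Dgcr8 transcripts were not separated. Of the exonic bases of Dgcr8, 68.7% lie outside other annotated genes, and its count may have lost reads of the rest.

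Xpo5, which encodes the export receptor of hairpin precursors (ENSMUSG00000067150, chromosome 17, 46202782 to 46243598, plus strand), was the gene of the set with the most reads, 5314 to 6949 per library. It had 299.8, 289.3 and 314.4 CPM across the controls, against 303.0, 310.9 and 350.0 CPM across the siArid3a set. Only siArid3a library 3 lay above the controls. A log2 difference of 0.09 (SE 0.08) had an edgeR adjusted p of 0.626. It was 0.030 without siArid3a library 3 and 0.14 after GC and length correction. The span of Xpo5 also holds a microRNA hairpin on its own strand, Mir693, at chr17:46231531-46231619.

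Dicer1, the cytoplasmic nuclease gene (ENSMUSG00000041415, chromosome 12, 104687742 to 104751952, minus strand), had 61.8, 59.2 and 61.8 CPM across the controls, against 65.0, 66.4 and 69.2 CPM across the siArid3a set. Each siArid3a library was above each control library, and both groups were tight, at 61.0 ± 1.49 and 66.9 ± 2.12 CPM (SD, n = 3 each). Its fitted log2 difference was 0.13 (SE 0.08), the edgeR adjusted p was 0.439 and the 95% interval covered 0.977 to 1.23 times the control level. The difference of the means was larger than either SD, the distance between the groups was smaller than the range of the siArid3a libraries, and the test across all genes did not call it.

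The Dicer1 mRNA is also a known target of the microRNAs it makes, shown in human cells for let-7 and for the miR-103/107 family. Their mature sequences (RefSeq, GRCm38.p6) are shown with the seed, bases 2 to 8, in capitals, since the seed is what a target site pairs with.
mmu-let-7a-5p: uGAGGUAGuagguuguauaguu
mmu-let-7g-5p: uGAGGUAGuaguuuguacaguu
mmu-miR-103-3p: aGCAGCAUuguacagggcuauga
mmu-miR-107-3p: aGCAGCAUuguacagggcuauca
The first pair shares 1 seed and the second pair shares another. In GENCODE M21 transcripts, taking for each gene the coding transcript with the longest 3′ untranslated region, the let-7 seed match CTACCTC occurred 4 times in the coding sequence of Dicer1 and 0 times in its 3′ untranslated region. At least 1 such match was in the coding sequence of 12.2% of 21007 genes, and 4 or more were in that of 11 genes (0.0524%), Dicer1 among them. That number was set by the count in Dicer1, and its coding sequence of 5721 bases, the longest of the set, was not adjusted for. The seed match of miR-103/107, ATGCTGC, occurred 1 time in the coding sequence of Dicer1, where 18.3% of genes have one, and 1 time in its 3′ untranslated region, where 11.3% have one. The windows around the coding let-7 matches and the untranslated miR-103/107 match are shown on the minus strand with the match in capitals. Window a crosses an exon boundary, and windows b, c and d lie at chr12:104702795-104702821, chr12:104702687-104702713 and chr12:104694687-104694713, with the miR-103/107 window at chr12:104690160-104690186 (GRCm38).
let-7 match a: ctactgtgttCTACCTCttaatgttgt
let-7 match b: gtacaaccaaCTACCTCatatcccatt
let-7 match c: gctaacacatCTACCTCagatggaagc
let-7 match d: cgattttggaCTACCTCataaccaagc
miR-103/107 match: gcttcatgtaATGCTGCacttaggttc
Mature microRNAs were not measured in these libraries. Of the host genes of miR-103 and miR-107, the pantothenate kinase genes, Pank1 had 10.3 ± 0.802 and 10.9 ± 0.777 CPM, Pank2 39.1 ± 0.508 and 36.9 ± 2.39 CPM, and Pank3 77.2 ± 4.54 and 90.6 ± 5.54 CPM in control and siArid3a libraries (SD, n = 3 each). Pank3 did not overlap between the groups and differed by 0.23 on the log2 scale (SE 0.08), at an edgeR adjusted p of 0.210. The Pank genes were singled out after their values were seen.

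Tarbp2 and Prkra encode the double-stranded RNA binding partners of DICER1. The first also inhibits and the second activates the antiviral kinase PKR. Tarbp2 (ENSMUSG00000023051, chromosome 15, 102518192 to 102523676, plus strand) had 60.8, 58.5 and 60.1 CPM across the controls, against 59.7, 63.1 and 62.2 CPM across the siArid3a set. Its groups overlapped, its controls had the smallest coefficient of variation of the 10 genes, 1.97%, and its log2 difference was 0.04 (SE 0.08) at an edgeR adjusted p of 0.841. It was 0.027 without siArid3a library 2, 0.068 without siArid3a library 1 and 0.12 after GC and length correction. Prkra (ENSMUSG00000002731, chromosome 2, 76629898 to 76648015, minus strand) had 22.1, 22.6 and 20.2 CPM across the controls, against 21.3, 16.2 and 19.1 CPM across the siArid3a set. The siArid3a libraries reached lower, with library 2 the lowest and library 1 inside the control range. Its log2 difference was -0.19 (SE 0.12) at an edgeR adjusted p of 0.461. It was -0.10 without siArid3a library 2 and -0.29 without siArid3a library 1. The kinase itself, Eif2ak2, had 200.6 ± 8.04 and 200.9 ± 0.714 CPM (SD, n = 3 each) and a log2 difference of 0.00 at an edgeR adjusted p of 0.994.

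Ago2 encodes the Argonaute that can cut a fully paired target, the activity on which siRNA knockdown rests (ENSMUSG00000036698, chromosome 15, 73095844 to 73184935, minus strand). It had 176.8, 161.3 and 192.0 CPM across the controls, against 206.8, 215.1 and 188.4 CPM across the siArid3a set. Libraries 1 and 2 of siArid3a were above all controls, and library 3 was below control library 3. The means were 176.7 ± 15.3 and 203.4 ± 13.7 CPM (SD, n = 3 each). A log2 difference of 0.20 (SE 0.08) resulted, at an unadjusted p of 0.0288 and an edgeR adjusted p of 0.275, and the unadjusted 95% interval was 1.02 to 1.30 times the control level. Chrac1 overlaps part of the gene, which leaves 87.8% of the exonic bases of Ago2 free of other genes.

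The other Argonaute genes lie in a row on the minus strand of chromosome 4, in the order Ago3, Ago1, Ago4, with 5455 and 20957 bases between them. Ago1, which silences without cutting (ENSMUSG00000041530, 126435012 to 126468583), had 48.1, 41.9 and 43.4 CPM across the controls, against 39.2, 48.3 and 41.7 CPM across the siArid3a set. Library 2 of siArid3a lay just above the controls, and libraries 1 and 3 lay below them, library 3 narrowly. The log2 difference was -0.05 (SE 0.10) at an edgeR adjusted p of 0.871. It turned to 0.014 without control library 1 and to 0.018 without siArid3a library 1. Ago3 (ENSMUSG00000028842, 126331704 to 126429556) had 25.04, 22.2 and 21.1 CPM across the controls, against 28.8, 24.4 and 25.01 CPM across the siArid3a set. Only siArid3a library 1 lay above the controls, and the log2 difference was 0.20 (SE 0.11) at an edgeR adjusted p of 0.420. It was 0.12 without siArid3a library 1, and 0.10 with each library's trend with GC content and transcript length removed.

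Ago4 (ENSMUSG00000042500, 126489541 to 126533472) was the scarcest of the set, with 54, 58 and 51 reads across the controls, against 60, 29 and 44 reads across the siArid3a set. Scaled to library size these were 2.81, 2.63 and 2.95 CPM in the controls and 2.62, 1.70 and 2.31 CPM in the siArid3a libraries. The groups did not overlap, but siArid3a library 1 lay just under control library 2. A log2 difference of -0.33 (SE 0.26) had an edgeR adjusted p of 0.584, and its 95% interval, 0.545 to 1.17 times the control level, was the widest of the 10. The difference was -0.18 without siArid3a library 2 and -0.47 without siArid3a library 1. For the other 9 genes the intervals lay between 0.732 and 1.35 times the control level.

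**Figure D2:**
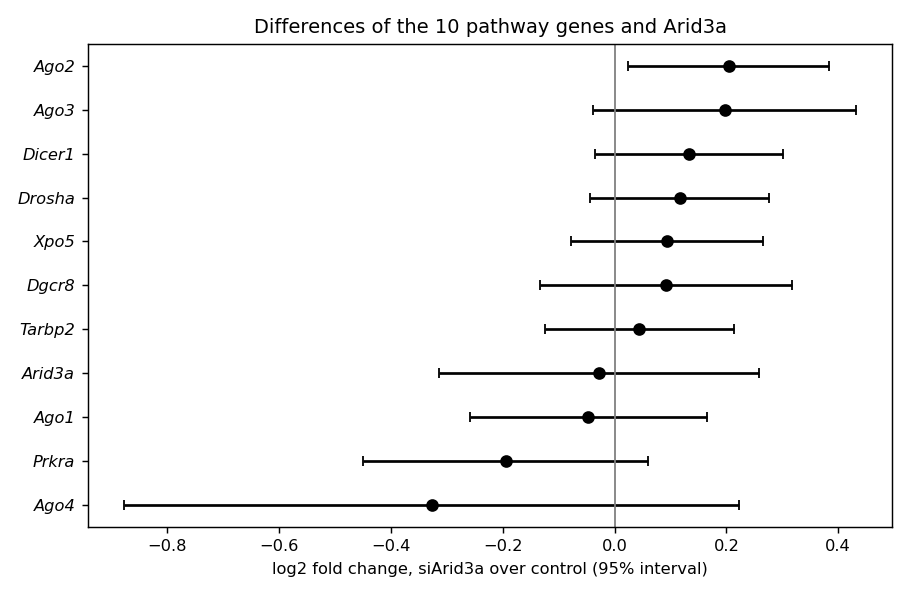
Log2 fold change of siArid3a over control (horizontal axis) with its 95% interval from the edgeR fit over 6 libraries, for the 10 genes and Arid3a. The intervals cover 0 for all but Ago2, whose unadjusted interval runs from 0.02 to 0.38, and that of Ago4 is the widest.

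Levels of different genes were compared as CPM per kilobase of annotated exon, averaged over the 6 libraries. Xpo5 was highest at 45.4 ± 3.05 CPM per kb (SD, n = 6), above 91.5% of 13221 tested genes, followed by Drosha at 22.4 ± 1.29. Ago2, at 13.5 ± 1.40, and Tarbp2, at 13.3 ± 0.373, did not differ beyond their spread, with Ago2 the higher in 3 of 6 libraries. Prkra came next at 9.98 ± 1.16 and Ago1 at 5.39 ± 0.452, close to the median of 5.84 over the tested genes. Dgcr8, at 4.27 ± 0.388, and Dicer1, at 3.82 ± 0.217, overlapped in range. Ago3 followed at 1.47 ± 0.162 and Ago4 at 0.360 ± 0.0648, above 8.89% of tested genes. Xpo5 was 126 times Ago4, and every other pair of neighbours in this order was separate in all 6 libraries.

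The order depends on the length used. Per kilobase of the whole gene span, which is the length the deposited table lists, Tarbp2 came first at 11.1 CPM per kb and Xpo5 second at 7.62. Ago2 stood at 2.13 by that length, and Drosha fell to rank 5 at 1.20. Per kilobase of the longest transcript, a choice made after the data were seen, Xpo5 and Drosha stayed first and second. Tarbp2, at 22.2, then stood above Ago2, at 13.8, so their near equality holds only per length of exon. Dgcr8, at 7.61, and Dicer1, at 6.49, then stood above Ago1, at 6.05. Ago3 and Ago4 were the lowest in all 3 orders.

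**Figure D3:**
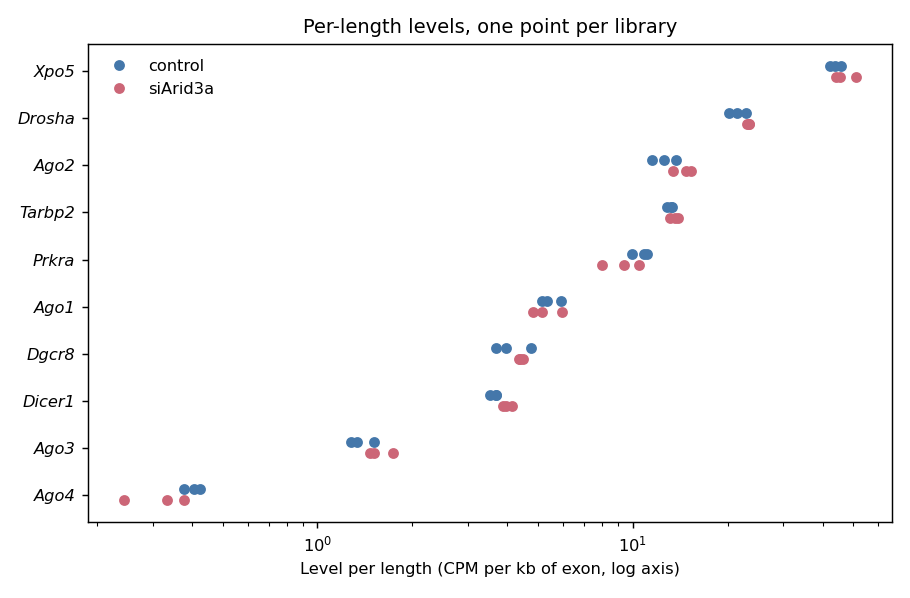
Level in CPM per kb of exon (horizontal log axis) of the 10 genes, 1 point per library, controls in blue and siArid3a in red. Xpo5 sits highest at 42.2 to 51.0 and Ago4 lowest at 0.244 to 0.425, and the points of Ago2 and Tarbp2 overlap.

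Within the Argonaute family, per length of exon, Ago2 made up 61.7%, 62.6% and 66.0% of the summed level across the controls, against 68.0%, 66.7% and 65.8% across the siArid3a set. It was thus the main Argonaute transcript in all 6 libraries, and the groups overlapped. Ago1 held 22.3% to 29.0% and Ago3 6.15% to 8.02%, also with overlap between the groups. Ago4 held 1.98% to 2.06% in the controls and 1.06% to 1.74% in the siArid3a libraries, without overlap but on few reads. Ago2 was 2.13, 2.23 and 2.56 times Ago1 across the controls, against 3.05, 2.58 and 2.61 times across the siArid3a set. Of 6 ratios between genes of the set this was the only one whose groups did not overlap. For single genes the share without overlap was 20.0% of all genes tested, and no share over ratios was computed. The ratio of Ago2 to Ago1 was higher in every siArid3a library, though control library 3 and siArid3a library 2 were nearly equal. The ratio of Drosha to Dgcr8 was 5.23 ± 0.517 in the controls and 5.29 ± 0.121 in the siArid3a libraries (SD, n = 3 each), and that of Tarbp2 to Prkra was 1.24 ± 0.0859 and 1.48 ± 0.244. Ago3 to Ago1 stood at 0.251 ± 0.0109 and 0.301 ± 0.0566, Drosha to Dicer1 at 5.91 ± 0.255 and 5.84 ± 0.145, and Xpo5 to Dicer1 at 12.1 ± 0.307 and 11.7 ± 0.547. These 5 overlapped between the groups. All 6 ratios are per length of exon, and their size depends on the length used. The comparison of groups does not, since a gene's length is the same in every library.

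The rest of the pathway was described by lists. No gene of any list was called by edgeR (0 of 117 tested outside the 10), against 0.0% of all genes, and 23 of the 117 had an unadjusted p under 0.05, against 14.9%. limma-voom also called 0 of them, and DESeq2 called 2 of 117, a share close to its 1.69% over all genes. By list, those with an unadjusted p under 0.05 were 2 of 15 Microprocessor cofactors, 4 of 7 export genes, 3 of 13 chaperones, 5 of 30 effectors, 2 of 11 tailing and decay genes, 3 of 11 double-stranded RNA binding partners, 1 of 2 PIWI pathway genes and 3 of 28 host transcripts. For each list below, the values over all genes tested are 48.9% above 0 and a median log2 fold change of -0.01. The lists were chosen with earlier results of these data known. Among Microprocessor cofactors, 10 of 15 had a log2 fold change above 0, with a median of 0.06. The helicase gene Ddx5 had 1039 ± 38.9 and 1080 ± 59.2 CPM in control and siArid3a libraries, and Hnrnpa1, whose product binds some precursor hairpins, 919.0 ± 50.7 and 948.1 ± 65.6 CPM (SD, n = 3 each).

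Exportin-5 needs the GTPase RAN to bind its cargo. In the list of nuclear export and the RAN cycle 6 of 7 genes had a log2 fold change above 0, with a median of 0.18, and 4 of 7, all higher in siArid3a, had an unadjusted p under 0.05, against 7.36% of all genes in that direction. Ran itself had 732.4 ± 37.4 and 778.6 ± 74.7 CPM, and the RAN GTPase activating protein gene Rangap1 408.2 ± 14.2 and 400.2 ± 6.87 CPM (SD, n = 3 each). Rcc1, the nucleotide exchange factor gene of RAN, picked after its value was seen, had 103.3 ± 7.49 and 133.8 ± 12.1 CPM (SD, n = 3 each), with no overlap. Its log2 fold change was 0.37 (SE 0.09), which DESeq2 called (adjusted p = 0.0169) and edgeR did not (adjusted p = 0.114).

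Chaperones of the HSP90 and HSP70 machinery open Argonaute so that it can take up a duplex. Of this list 9 of 13 genes were above 0, with a median of 0.02. Hsp90ab1 had 3651 ± 52.4 and 3652 ± 123 CPM and Hsp90aa1 1764 ± 152 and 1926 ± 176 CPM (SD, n = 3 each). Ptges3, the gene of the HSP90 co-chaperone p23 and again picked after its value was seen, had 347.3 ± 21.6 and 436.1 ± 53.2 CPM with no overlap. Its log2 fold change of 0.33 (SE 0.09) was called by DESeq2 (adjusted p = 0.0440) and not by edgeR (adjusted p = 0.143).

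Effectors of silencing are the GW182 proteins, deadenylases, decapping factors and poly(A)-binding proteins that act after Argonaute has bound. Of this list 24 of 30 tested genes were above 0, against 48.9% of all genes, and the median was 0.06. In 6 of 30 the groups did not overlap, against 20.0% of all genes, and Pabpc1 and Pabpc4, poly(A)-binding protein genes, were among the 6. Pabpc1 had 2139 ± 122 and 2473 ± 156 CPM, with a log2 fold change of 0.21 (SE 0.09, edgeR adjusted p = 0.287), and Pabpc4 281.3 ± 24.7 and 349.3 ± 37.1 CPM, with 0.31 (SE 0.09, edgeR adjusted p = 0.152). The scaffold genes Tnrc6a, Tnrc6b and Tnrc6c, which link Argonaute to deadenylases, had log2 fold changes of 0.02, -0.08 and 0.07 and were picked after their values were seen.

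Small RNA tailing and decay genes had 9 of 11 above 0 and a median of 0.05. Zswim8, part of the ligase that degrades Argonaute during target-directed microRNA decay, had 238.8 ± 35.1 and 246.8 ± 20.2 CPM, and the nuclear exonuclease gene Xrn2 180.1 ± 5.77 and 200.8 ± 17.1 CPM (SD, n = 3 each). Double-stranded RNA binding partners had 8 of 11 above 0 and a median of 0.03, with Dhx9, an RNA helicase gene, at 339.7 ± 5.29 and 356.4 ± 20.3 CPM. Host transcripts of microRNAs were split evenly, 14 of 28 above 0, with a median of 0.01. Among them Huwe1 had 451.1 ± 43.8 and 475.3 ± 22.7 CPM and Mcm7, host of the miR-106b cluster, 331.5 ± 13.3 and 330.0 ± 12.7 CPM (SD, n = 3 each).

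The PIWI pathway, the germline branch of small RNA silencing, was close to silent. Only 2 of 10 listed genes with a row were abundant enough to be tested. Piwil1 had 6 reads and Piwil2 24 reads over the 6 libraries, both picked after their values were seen, while Piwil4 had 1.42 ± 0.446 and 1.44 ± 0.513 CPM (SD, n = 3 each). Tdrkh, a Tudor domain protein gene also used outside the germline, had 24.6, 24.1 and 19.1 CPM across the controls, against 26.5, 28.8 and 38.5 CPM across the siArid3a set. The groups did not overlap, and a log2 difference of 0.47 (SE 0.14) had an adjusted p of 0.159 by edgeR and 0.0704 by DESeq2.

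**Figure D4:**
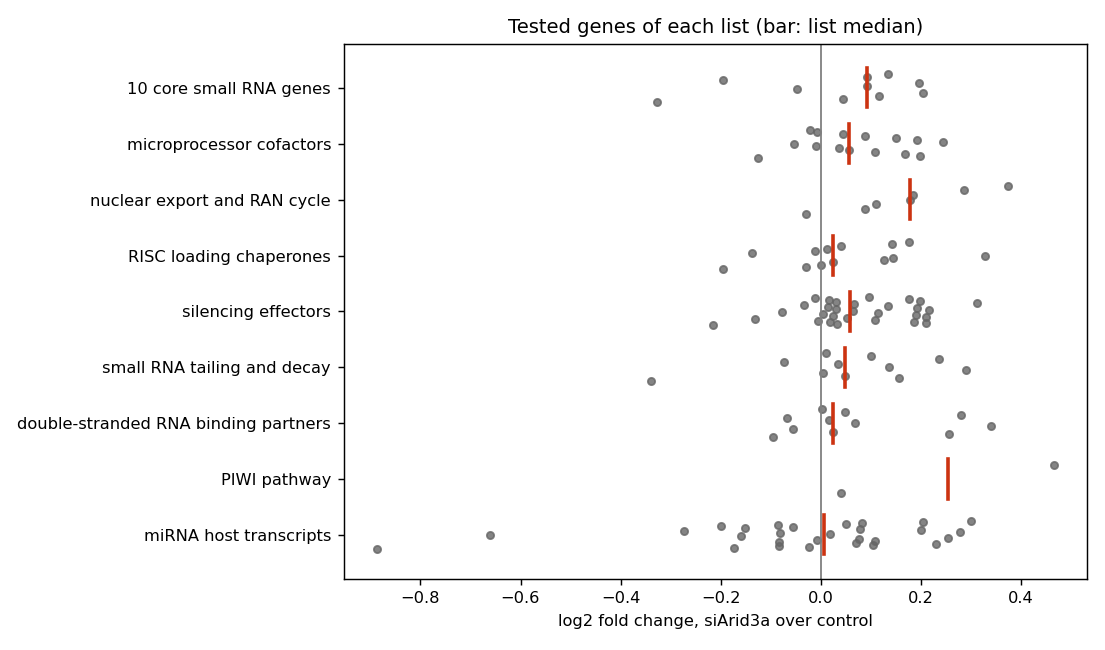
Log2 fold change of siArid3a over control (horizontal axis) of every tested gene in each list, 1 point per gene, with the list median as a red bar; the vertical scatter within a list has no meaning. The medians lie between 0.01 for microRNA host transcripts and 0.25 for the 2 tested PIWI pathway genes.

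The genes whose log2 CPM followed Ago2 most closely over the 6 libraries, of 13214 compared, were Pigg, Abcc4 and Spring1, with Pearson coefficients of 0.990, 0.988 and 0.986. For Dicer1, Plekho1 and Pim1 had coefficients of 0.997 and 0.996. These coefficients rest on 6 libraries that share their preparation and scaling, and 22 genes for Ago2 and 96 for Dicer1 exceeded 0.95.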

How the data were processed

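RNA captured by its poly(A) tail was sequenced from 6 libraries on an MGI instrument, per the labels' protocols. What the authors deposited are raw counts, 1 whole number per gene and library. The submitters' processing notes name STAR 2.7.3a, featureCounts and mm10; for the annotation and strand setting nothing is given in the sources used here. The deposited length column equals the whole gene span in all 23197 rows, so counts may hold intronic reads and reads shared between genes may be missing. GENCODE M21 (GRCm38, the assembly of mm10) gave exon lengths and listed 23134 of the identifiers; the 10 genes matched it in start and end.

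Genes were kept by filterByExpr (13234), given TMM factors, and compared by quasi-likelihood F tests (edgeR 4.0.16, R 4.3.3, robust, with only group in the model), with Benjamini-Hochberg adjustment over all genes tested and calls at an adjusted p under 0.05. The standard error of a log2 difference is its size divided by the root of F. CPM are counts over the TMM-scaled library total. DESeq2 1.42.0 and limma 3.58.1 (voom), other scalings and filters, a replicate block, a GC and length correction (loess, span 0.3) and each library left out were alternatives. The steps were tested on simulated data. Pairs of libraries within a group differed by a chi-square per degree of freedom of 5.72 to 20.2, more than sampling noise. Precision is limited by 3 libraries a group.

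The members, lists and tests were chosen with earlier results of these data known. Named were the 10 genes, Arid3a, Eif2ak2, up to 4 called or else the 2 most abundant genes of each list, and the 3 genes most like Ago2 and Dicer1, of which 1 is not reported here; others are marked where named.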

Additional observations from a re-analysis of the deposited data

How the results depend on the processing

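None of the 10 genes was called under any of the 16 alternatives run, and the lowest adjusted p was 0.0743, for Ago2 with the GC and length trend removed; over all alternatives Ago2 kept a log2 fold change of 0.15 to 0.27 with adjusted p up to 0.604. Of 160 member values, 158 kept their sign; Ago1 ran from -0.14 to 0.018 with 1 library left out, turning to 0.014 without control library 1 and to 0.018 without siArid3a library 1. Arid3a turned to 0.054 after GC and length correction, and ranged from -0.13 to 0.084 with 1 library left out, turning to 0.084 without control library 3 and to 0.07 without siArid3a library 1; the cause was not tested. The count of all genes called, 0, was 223 with DESeq2, 439 without a filter on low counts and 365 after GC and length correction, and 0 to 132 with 1 library left out (132, 100 and 44 without control library 2, control library 3 and siArid3a library 2). With a replicate block 0 of the 10 and 0 of all genes were called. Deviations of same-numbered libraries correlated at 0.03, -0.18 and -0.08, and those of differently numbered libraries at -0.06 to 0.15. These values show no sign of pairing by number, but with 3 libraries a group they cannot exclude it. The ratio of the highest to the lowest per-length level, 126, was 194 per gene span and 160.0 per longest transcript, and the Ago2 share, 65.1% on average, was 56.9% per gene span, by construction of the lengths. Depth limits Ago4, with 29 to 60 reads per library.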

Other observations

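Seed matches of the same microRNA families also lie in the 3′ untranslated regions of other genes of the set. That of Ago2, 11064 bases long in the transcript used, holds 3 let-7 and 2 miR-103/107 matches, and that of Ago3, 12742 bases long, holds 1 of each. Tarbp2 holds 1 of each within 334 bases, and Ago1, Ago4 and Dgcr8 each hold 1 for miR-103/107. Drosha (169 bases), Xpo5 (1327 bases) and Prkra (513 bases) hold 0 of either. Over all 21007 genes, 9.02% hold a let-7 match and 11.3% a miR-103/107 match in this region, with no adjustment for its length. Besides Dicer1, other genes of the set hold matches in the coding sequence. Xpo5 holds 2 for let-7 and Ago3 holds 1. Ago1, Ago4, Drosha, Tarbp2 and Prkra each hold 1 for miR-103/107, and Ago2 and Dgcr8 hold 0 of either there. Over all genes, 12.2% hold a let-7 match and 18.3% a miR-103/107 match in the coding sequence.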
